A study of Homo sapiens with 12 samples.

Results

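The 6 classical IGF-binding proteins (IGFBP1 to IGFBP6) and 3 receptors of the family (IGF1R, INSR and IGF2R) were examined in LNCaPabl-Enza and LNCaPabl-Abi, a pair of prostate cancer sublines whose name refers to the established human line LNCaP. These 9 genes, of 17687 measured, were chosen by gene family, and the family was picked with earlier results of these arrays known. Each gene had 1 row on the array, so the rule of taking the brightest row of a symbol decided nothing. There were 4 groups of 3 arrays. Enza_Dex was LNCaPabl-Enza given 100 nM dexamethasone, a synthetic glucocorticoid, for 24 h, and Enza_Ctrl was the same line given the solvent DMSO for 24 h. Abi_Dex and Abi_Ctrl were LNCaPabl-Abi treated in the same ways. Both lines grew in RPMI medium with 10% fetal calf serum, which itself carries IGFs and steroids, and the labels do not say what Abi and Enza abbreviate. Each line is a single line, so a difference between them is a difference between 2 cell stocks. The series asks how glucocorticoid receptor signalling alters expression in them.

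IGF1 and IGF2 are insulin-like growth factors that act through IGF1R, a receptor tyrosine kinase, and through hybrids of IGF1R with the insulin receptor INSR. The activated receptors recruit IRS adaptors and drive the PI3K-AKT and MAP kinase pathways, which favour growth and survival. IGF2R, also called the cation-independent mannose 6-phosphate receptor, has no kinase and carries IGF2 to lysosomes for degradation. The secreted IGFBPs bind IGFs with high affinity, prolong their life in the circulation and control how much reaches a receptor. Prostate epithelium makes several IGFBPs, and kallikrein proteases such as KLK3 (PSA) can cleave IGFBP3.

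The 250 bases upstream of the annotated start are shown for the 3 genes on which the results turn, since dexamethasone acts through a DNA-binding receptor. They were taken from RefSeq promoter windows on GRCh38.p14 and run 5′ to 3′ on the strand of the gene. The table held windows for 8 of the 9 genes, and IGFBP2 had 3 annotated starts, of which the first is printed. Capitals mark exact matches, on either strand, to the half-site of the glucocorticoid response element (TGTTCT, shared by the androgen and progesterone receptors) or to the GC box bound by SP1-family factors (GGGCGG, or CCGCCC when it lies on the other strand). IGFBP3 is at chr7:45921273-45921522 on the minus strand, IGFBP2 at chr2:216632578-216632827 on the plus strand and IGF1R at chr15:98648289-98648538 on the plus strand.
IGFBP3: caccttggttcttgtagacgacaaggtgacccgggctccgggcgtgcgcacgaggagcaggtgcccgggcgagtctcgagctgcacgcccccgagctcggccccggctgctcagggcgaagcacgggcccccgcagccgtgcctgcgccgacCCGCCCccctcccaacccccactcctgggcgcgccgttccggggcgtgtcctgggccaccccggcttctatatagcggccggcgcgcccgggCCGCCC
IGFBP2: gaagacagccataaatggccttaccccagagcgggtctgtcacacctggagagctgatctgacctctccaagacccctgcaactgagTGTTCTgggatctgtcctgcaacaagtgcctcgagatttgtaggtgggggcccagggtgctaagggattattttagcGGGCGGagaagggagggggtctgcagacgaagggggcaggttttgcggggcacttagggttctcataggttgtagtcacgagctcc
IGF1R: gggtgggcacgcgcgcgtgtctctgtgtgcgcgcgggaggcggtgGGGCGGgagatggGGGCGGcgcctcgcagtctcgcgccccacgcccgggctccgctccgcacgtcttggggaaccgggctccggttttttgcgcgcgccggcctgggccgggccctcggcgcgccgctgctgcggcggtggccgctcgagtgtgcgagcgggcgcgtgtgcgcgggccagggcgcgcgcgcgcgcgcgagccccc

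The printed IGFBP3 and IGF1R windows each hold 2 GC boxes and no match to the half-site. In the printed IGFBP2 window the half-site begins 163 bases before the start and the GC box 86 bases before it. IGFBP2 window 2, not printed, has a GC box 49 bases before its start and no half-site. IGFBP2 window 3, also not printed, has a half-site 246 bases before its start and no GC box. The half-site was found in 12.4% of 35116 promoter windows of this length and the GC box in 42.6%. The palindromic full element (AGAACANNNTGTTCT, which contains the half-site on both strands) was found in 1 window of all, and in none of the 10 windows of the family. The TATAAA box was found in 10.7% of windows and, within the family, in IGFBP4 alone. The GC content of the 3 printed windows was 76.0% in IGFBP3, 56.8% in IGFBP2 and 81.2% in IGF1R. A match of letters describes these windows and says nothing of binding in these cells, and enhancers further away were not examined. IGFBP2 and IGFBP5 are adjacent on chromosome 2, and IGFBP1 and IGFBP3 on chromosome 7, with no other gene between either pair in the RefSeq gene table.

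Levels are the deposited log2 values, 1 per gene and array, and a difference of 1 is a 2-fold difference on that scale. One array was unlike the rest. Enza_Ctrl replicate 2 had a median Pearson r of 0.855 with the other arrays, against 0.986 to 0.990 for each of the others, and its 23 background rows had a median of 5.77, against 3.95 to 3.98 elsewhere. Its rows for the poly-A spike-in controls averaged 3.46, against 7.07 to 8.10 elsewhere. Those for the hybridization controls averaged 13.94, against 10.49 to 11.43. Each call is therefore given with all 12 arrays and without that array, and a difference that was called in neither fit is given with 12 arrays where no other set is named. The replicate 3 arrays also differed. Over 25 other genes that were lower in LNCaPabl-Enza by more than 3 on replicates 1 and 2, Enza_Dex replicate 3 lay 82.9% and Enza_Ctrl replicate 3 lay 70.2% of the way between the lines, where the Abi level is 0%. Abi_Dex replicate 3 lay at 22.4% and Abi_Ctrl replicate 3 at 8.69% on the same measure. Over 14 genes that were higher in LNCaPabl-Enza by more than 3, the shares were 95.3% for Enza_Dex, 80.4% for Enza_Ctrl, 3.95% for Abi_Dex and -2.79% for Abi_Ctrl. Both sets were chosen on replicates 1 and 2 without Enza_Ctrl replicate 2, a choice that can itself draw the shares of the arrays left out of it inward. Enza_Ctrl replicate 2, also left out of the choice, lay at 97.3% over the 25 genes and at 74.0% over the 14. The 7 luminal prostate markers measured averaged 12.4 to 13.2 per array on the 11 other arrays, against 4.27 to 4.72 for 7 fibroblast markers and 3.72 to 4.02 for 4 endothelial markers. Basal, neuroendocrine, immune and liver markers averaged 3.99 to 4.37, 4.36 to 5.52, 4.49 to 5.22 and 4.02 to 4.55. Single markers departed from their lists, among them the luminal KLK3 at 6.63 to 9.88 and the fibroblast COL1A2 at 7.42 to 8.63. NCAM1, a neuroendocrine marker, had 6.42 to 7.15 on replicates 1 and 2 of both Abi groups. On the rest of the 11 arrays it had 3.28 to 4.23. SGK1, a classical glucocorticoid target that served as a check of the treatment, had 9.66, 9.99 and 13.20 in Enza_Dex against 6.13, 6.17 and 6.89 in Enza_Ctrl, and 13.59, 13.29 and 13.83 in Abi_Dex against 6.52, 6.20 and 5.82 in Abi_Ctrl.

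The lines differed most in IGFBP3 and IGFBP2, which were both lower in LNCaPabl-Enza with and without dexamethasone. IGF1R was higher after dexamethasone in LNCaPabl-Abi. Genes are termed called where limma gave a p under 0.05 after Benjamini-Hochberg adjustment over all 17687 genes. With 12 arrays, 0 of the 9 genes were called in any of the 5 comparisons, although 3 had an unadjusted p under 0.05 between the dexamethasone-treated lines (4.14% of all genes) and 4 between the DMSO-treated lines (11.3% of all genes). At that unadjusted level, 1 was found for dexamethasone in LNCaPabl-Enza (3.96% of all genes), 1 in LNCaPabl-Abi (1.36%) and 0 for the difference between the responses (1.5%). The background share of all genes called with 12 arrays was 0.277% between the dexamethasone-treated lines, 0.266% between the DMSO-treated lines, 0% for dexamethasone in LNCaPabl-Enza, 0.0283% for dexamethasone in LNCaPabl-Abi and 0% for the difference between the responses. Without Enza_Ctrl replicate 2, 3 of the 9 were called between the dexamethasone-treated lines, where 2.28% of all genes were called. Between the DMSO-treated lines it was 2 of the 9, where 1.29% of all genes were called. For dexamethasone in LNCaPabl-Abi it was 1 of the 9, where 0.141% of all genes were called. In LNCaPabl-Enza and for the difference between the responses it was 0 of the 9, where limma called 0% of all genes in either. An unadjusted p under 0.05 was reached there by 0 and 1 of the 9 and by 530 and 566 of all genes (3.0% and 3.2%). With 12 arrays it was reached by 700 and 266 of all genes (3.96% and 1.5%). SGK1, the treatment check, was not called in LNCaPabl-Enza either, at 4.55 ± 0.73 (SE, adjusted p = 0.523) with 12 arrays. Without Enza_Ctrl replicate 2 it was at 4.43 ± 0.70 (adjusted p = 0.269). The absence of calls in that line therefore does not show that genes did not respond. Comparisons that share a group of arrays are not independent of each other.

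**Figure D1:**
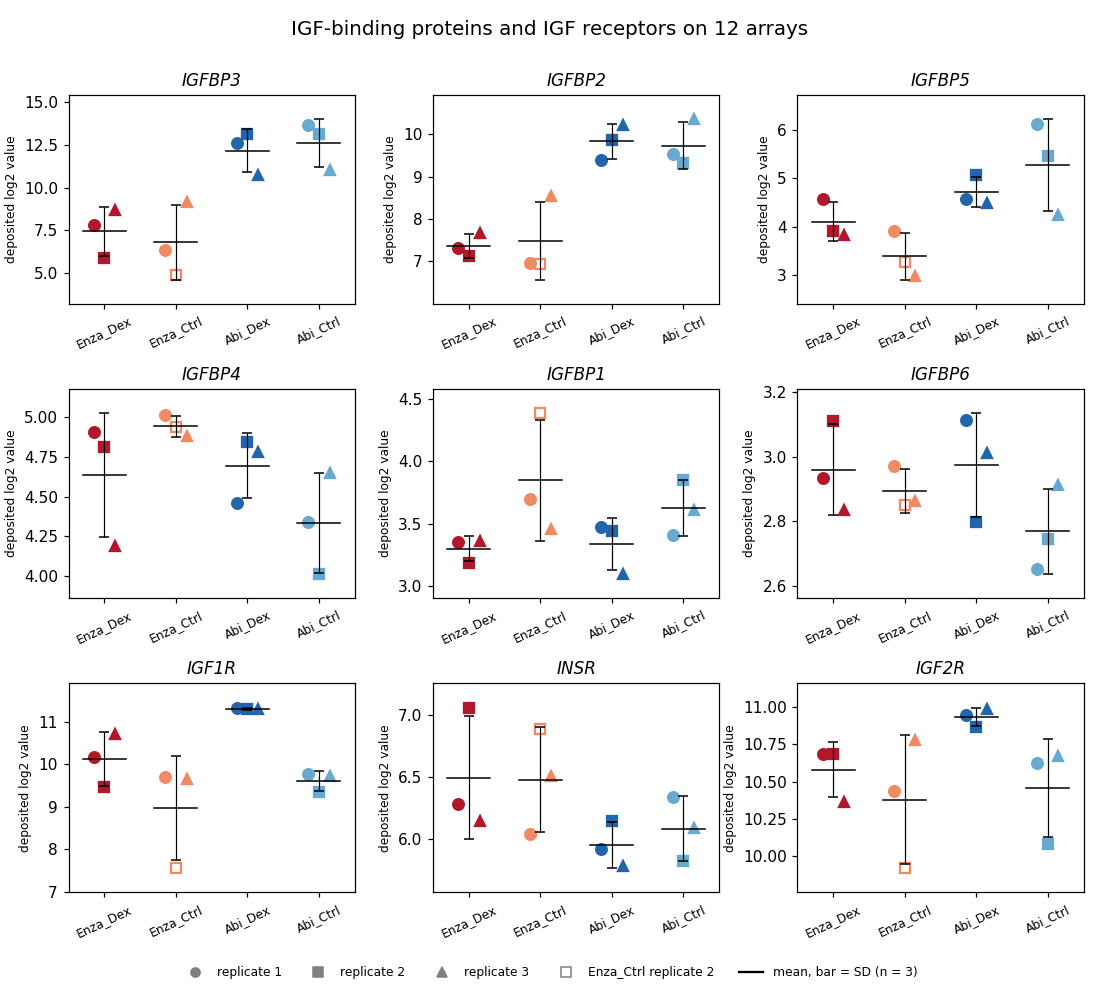
Deposited log2 values (y axis, with its own range in each panel) of the 9 genes on every array of the 4 groups (x axis). Marker shapes give the replicate number, the open square is Enza_Ctrl replicate 2, and lines and bars are the mean and SD of 3 arrays. IGFBP3 and IGFBP2 lie lower on all 6 Enza arrays than on all 6 Abi arrays, and the 3 Abi_Dex arrays have IGF1R values from 11.29 to 11.33.

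IGFBP3, the main carrier of IGFs in blood, which forms a ternary complex with an IGF and the acid-labile subunit, showed the widest range of group means of the 9 genes, at 5.18 on the log2 scale without Enza_Ctrl replicate 2. It had 7.78, 5.88 and 8.66 in Enza_Dex (replicates 1, 2 and 3), against 12.60, 13.15 and 10.75 in Abi_Dex. In the DMSO groups it had 6.33, 4.87 and 9.17 in Enza_Ctrl, against 13.68, 13.15 and 11.03 in Abi_Ctrl. The 4.87 of Enza_Ctrl replicate 2 lay below the background median of that array (5.77) and is only an upper bound. The lines did not overlap under either treatment, and in every group replicate 3 lay nearest to the other line. Means were 7.44 ± 1.42 in Enza_Dex, 6.79 ± 2.18 in Enza_Ctrl, 12.17 ± 1.26 in Abi_Dex and 12.62 ± 1.40 in Abi_Ctrl (SD, n = 3 each). Within a line, neighbouring group means differed by less than these SDs.

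Between the dexamethasone-treated lines IGFBP3 differed by -4.73 ± 1.12 (SE), 26.5-fold lower in Enza_Dex (adjusted p = 0.190 with 12 arrays). The fold applies to the deposited scale, which spans more than RMA values usually do. Without Enza_Ctrl replicate 2, an array of neither group that entered only through the pooled spread, the difference was the same with an SE of 0.84, a 95% interval of 7.63-fold to 91.7-fold and an adjusted p of 0.00605. In a fit of the Enza_Dex and Abi_Dex arrays alone, the adjusted p was 0.00400. With DMSO the difference was -5.83 ± 1.12 (SE, adjusted p = 0.0726) with 12 arrays and -4.87 ± 0.94 (adjusted p = 0.0170) without that array. In a fit of the Enza_Ctrl and Abi_Ctrl arrays alone, the adjusted p was 0.643, and 0.0310 without Enza_Ctrl replicate 2. On replicates 1 and 2 only, leaving out all 4 replicate 3 arrays as well as Enza_Ctrl replicate 2, the differences were -6.05 (adjusted p = 1.01e-05) with dexamethasone and -7.09 (adjusted p = 2.68e-05) with DMSO. That choice of arrays was made after their values were seen. In these bulk samples, fewer cells that express a gene and less RNA per cell cannot be told apart.

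Dexamethasone left no detectable difference in IGFBP3 within either line. The difference was 0.65 ± 1.12 (SE, 95% interval -1.81 to 3.11, adjusted p = 0.737) in LNCaPabl-Enza and -0.45 ± 1.12 (95% interval -2.91 to 2.01, adjusted p = 1.00) in LNCaPabl-Abi with 12 arrays. In LNCaPabl-Enza it was -0.31 ± 0.94 without Enza_Ctrl replicate 2, so its sign turned on that array. These intervals leave room for changes of more than 2-fold in either direction.

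IGFBP2, a binding protein with an RGD motif that can engage integrins and which is often abundant in prostate cancer, had 7.31, 7.12 and 7.66 in Enza_Dex against 9.40, 9.87 and 10.22 in Abi_Dex. With DMSO it had 6.97, 6.95 and 8.55 in Enza_Ctrl against 9.52, 9.31 and 10.36 in Abi_Ctrl. All 6 Enza values lay below all 6 Abi values. Replicate 3 had the highest IGFBP2 in every group. Both Enza replicate 3 arrays thus lay nearest to LNCaPabl-Abi, as for IGFBP3. Both Abi replicate 3 arrays lay farthest from LNCaPabl-Enza, unlike those of IGFBP3.

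With dexamethasone, IGFBP2 was lower in LNCaPabl-Enza by -2.47 ± 0.44 (SE) with an adjusted p of 0.0525 with 12 arrays, and by the same difference with an SE of 0.36 and an adjusted p of 0.00139 without Enza_Ctrl replicate 2. That difference is 5.53-fold on the deposited scale, with a 95% interval of 3.25-fold to 9.41-fold. In a limma fit of the Enza_Dex and Abi_Dex arrays alone, the adjusted p was 0.000233. With DMSO the difference was -2.24 ± 0.44 (adjusted p = 0.0823) with 12 arrays and -1.97 ± 0.40 (adjusted p = 0.0242) without that array. In a fit of the Enza_Ctrl and Abi_Ctrl arrays alone it was not called (adjusted p = 0.728), nor in that fit without Enza_Ctrl replicate 2 (adjusted p = 0.116). Leaving out Enza_Ctrl replicate 3 from the 12 arrays gave -2.77 (adjusted p = 0.00931). The response to dexamethasone was -0.13 ± 0.44 in LNCaPabl-Enza, or -0.40 ± 0.40 without Enza_Ctrl replicate 2, and 0.10 ± 0.44 in LNCaPabl-Abi, none of which passed the test. Dexamethasone thus left IGFBP2 uncalled in both lines, with and without that array.

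IGFBP5, a binding protein that associates with extracellular matrix and whose gene lies next to IGFBP2, was dim. It had 4.57, 3.91 and 3.83 in Enza_Dex, 3.91, 3.27 and 2.97 in Enza_Ctrl, 4.58, 5.06 and 4.49 in Abi_Dex and 6.11, 5.46 and 4.24 in Abi_Ctrl. All 3 Enza_Ctrl values lay below the median of the background rows of their array, so IGFBP5 had only an upper bound in that group. The DMSO groups did not overlap, with a difference of -1.88 ± 0.44 (SE, adjusted p = 0.149) with 12 arrays and -1.83 ± 0.43 (adjusted p = 0.0539) without Enza_Ctrl replicate 2, neither of which was called. With dexamethasone the groups overlapped and the difference was -0.61 ± 0.44 (adjusted p = 1.00). Dexamethasone gave -0.56 ± 0.44 (adjusted p = 1.00) in LNCaPabl-Abi, where the groups overlapped. No response is given for LNCaPabl-Enza, because Enza_Dex replicates 2 and 3 also lay below the background median of their arrays.

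IGFBP4, an inhibitory binding protein cleaved by the protease PAPPA, lay close to background, with 4.90, 4.81 and 4.19 in Enza_Dex, 5.01, 4.94 and 4.88 in Enza_Ctrl, 4.46, 4.84 and 4.78 in Abi_Dex and 4.34, 4.01 and 4.65 in Abi_Ctrl. Its DMSO groups did not overlap, and its difference of 0.61 ± 0.26 (SE) was the only positive one among the 4 genes of the family that did not overlap there (adjusted p = 0.432). IGFBP1, a liver protein that insulin represses and glucocorticoids induce in hepatocytes, ranged from 3.10 to 3.85 on the 11 other arrays and was at 4.39 on Enza_Ctrl replicate 2. IGFBP6, which prefers IGF2 to IGF1, ranged from 2.65 to 3.11 over all 12 arrays. Both lay below the background median on every array, so neither gave a level, and the lower IGFBP1 values of Enza_Dex (3.36, 3.19 and 3.36 against 3.70, 4.39 and 3.46 in Enza_Ctrl) are differences among values at background. The IGFBP1 difference was -0.55 ± 0.26 (adjusted p = 0.523) with 12 arrays and -0.28 ± 0.21 (adjusted p = 1.00) without Enza_Ctrl replicate 2.

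IGF1R had 11.33, 11.29 and 11.30 in Abi_Dex, against 9.77, 9.35 and 9.73 in Abi_Ctrl. All treated values lay above all control values, and the 3 Abi_Dex arrays were nearly equal. With 12 arrays IGF1R differed by 1.69 ± 0.51 (SE), 3.23-fold on the deposited scale (adjusted p = 1.00). Without Enza_Ctrl replicate 2, which belongs to the other line and entered only through the pooled spread, the SE was 0.25, the 95% interval 1.15 to 2.23 on the log2 scale and the adjusted p 0.00965. By p it then ranked 14 of 17687 genes. In a fit of the 6 Abi arrays alone the adjusted p was 0.00520. Each SD in that line was small, at 0.022 in Abi_Dex and 0.24 in Abi_Ctrl (n = 3 each).

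In LNCaPabl-Enza, IGF1R had 10.17, 9.47 and 10.72 with dexamethasone, against 9.69, 7.56 and 9.65 with DMSO. The groups overlapped, and the value of 7.56 belonged to Enza_Ctrl replicate 2. The difference was 1.15 ± 0.51 (SE, adjusted p = 0.523) with 12 arrays and 0.45 ± 0.28 (95% interval -0.15 to 1.05, adjusted p = 1.00) without that array. The response in LNCaPabl-Enza minus that in LNCaPabl-Abi was -0.54 ± 0.72 with 12 arrays and -1.24 ± 0.38 without it, with an unadjusted p of 0.00514 and an adjusted p of 0.999, so the responses were not shown to differ. Among the Enza_Dex arrays, replicate 3 had the highest IGF1R and also the highest SGK1, and the highest NR3C1, which encodes the glucocorticoid receptor (6.72, 6.38 and 9.03 in Enza_Dex). NR3C1 was also highest on replicate 3 in Enza_Ctrl (6.51, 7.43 and 10.37), and it had 9.44 to 11.49 in LNCaPabl-Abi. A relation of NR3C1 to the IGF1R level was not tested. With 12 arrays less Enza_Dex replicate 3, the IGF1R difference in LNCaPabl-Enza was 0.85 ± 0.56 (adjusted p = 0.672). Without all replicate 3 arrays and Enza_Ctrl replicate 2 it was 0.13 ± 0.34 (adjusted p = 1.00). After dexamethasone IGF1R was lower in LNCaPabl-Enza by -1.19 ± 0.51 (adjusted p = 1.00) with 12 arrays and by the same difference with an SE of 0.25 (adjusted p = 0.0204) without Enza_Ctrl replicate 2. With DMSO the lines differed by -0.65 ± 0.51 with 12 arrays and by 0.054 ± 0.28 without it.

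INSR, the insulin receptor, had 6.28, 7.06 and 6.15 in Enza_Dex and 6.04, 6.89 and 6.51 in Enza_Ctrl. In LNCaPabl-Abi it had 5.91, 6.15 and 5.78 in Abi_Dex and 6.34, 5.82 and 6.09 in Abi_Ctrl. The dexamethasone-treated lines were only just separated, and INSR differed by 0.55 ± 0.30 (SE, adjusted p = 1.00 with 12 arrays and 0.395 without Enza_Ctrl replicate 2). Dexamethasone gave -0.14 ± 0.30 in LNCaPabl-Abi (95% interval -0.80 to 0.53) and 0.017 ± 0.30 in LNCaPabl-Enza (95% interval -0.65 to 0.69), so INSR showed no response like that of IGF1R in LNCaPabl-Abi that could be detected.

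IGF2R varied least of the 3 receptors, with a range of group means of 0.48 without Enza_Ctrl replicate 2. It had 10.69, 10.69 and 10.37 in Enza_Dex, 10.44, 9.92 and 10.78 in Enza_Ctrl, 10.95, 10.87 and 10.99 in Abi_Dex and 10.63, 10.08 and 10.67 in Abi_Ctrl. The Abi_Dex values lay above all the others. The difference in LNCaPabl-Abi was 0.48 ± 0.26 (SE, adjusted p = 1.00) with 12 arrays and 0.48 ± 0.20 (adjusted p = 0.678) without that array, and it was not called. In LNCaPabl-Enza it was 0.20 ± 0.26, or -0.029 ± 0.22 without that array.

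Counted as arrays that do not overlap between groups, 5 of the 9 genes separated the dexamethasone-treated lines, where 20.1% of all genes did. These were IGFBP3, IGFBP2, IGF1R and IGF2R, lower in LNCaPabl-Enza, and INSR, higher. Of the 9, 4 separated the DMSO-treated lines (14.2% of all genes), namely IGFBP3, IGFBP2 and IGFBP5, lower in LNCaPabl-Enza, and IGFBP4, higher. Dexamethasone separated IGF1R and IGF2R in LNCaPabl-Abi, 2 of the 9 (12.3% of all genes), and IGFBP1 in LNCaPabl-Enza, 1 of the 9 (8.74% of all genes). The median difference of the 9 genes was -0.36 between the dexamethasone-treated lines, against -0.0084 over all genes, and 0.10 for dexamethasone in LNCaPabl-Abi, against 0.0023 over all genes.

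**Figure D2:**
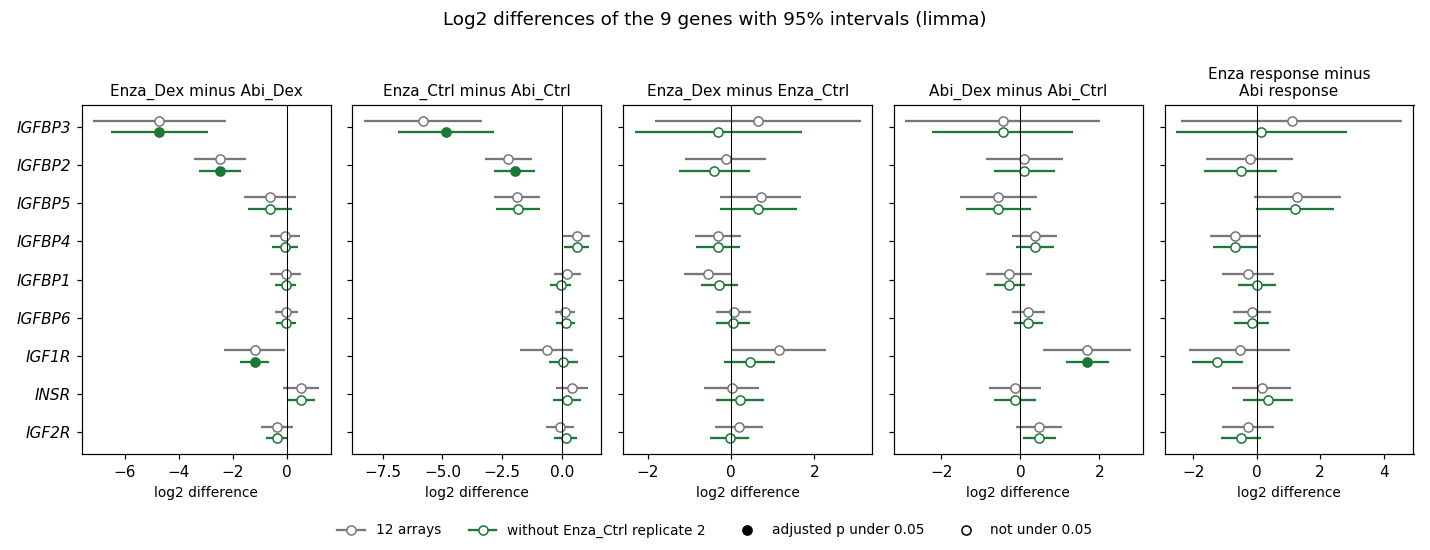
Log2 differences (x axis, with its own range in each panel) of the 9 genes (y axis) in the 5 comparisons, with 95% intervals from limma, for 12 arrays (grey) and without Enza_Ctrl replicate 2 (green). Filled points have an adjusted p under 0.05. These are IGFBP3, IGFBP2 and IGF1R between the dexamethasone-treated lines, IGFBP3 and IGFBP2 between the DMSO-treated lines and IGF1R for dexamethasone in LNCaPabl-Abi, all of them without that array.

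The wider pathway was read from 8 lists of 90 genes, of which 84 were measured. They held ligands, IGFBP-related genes, IGFBP proteases, surface partners, the adaptors and PI3K-AKT core, negative regulators, FOXO factors with their targets, and the IGF2 mRNA-binding proteins. With 12 arrays limma called 0 of the 84 in any comparison, and 3 to 9 of them had an unadjusted p under 0.05. Those 9 came from each comparison between the lines and are 10.7% of the 84, against 4.14% of all genes with dexamethasone and 11.3% with DMSO. Without Enza_Ctrl replicate 2, 5 of the 84 (5.95%, against 2.28% of all genes) were called between the dexamethasone-treated lines, 1 higher and 4 lower in LNCaPabl-Enza. Between the DMSO-treated lines 2 of the 84 (2.38%, against 1.29% of all genes) were called, both lower. In the other 3 comparisons limma called 0. An unadjusted p under 0.05 was reached there by 3.57% of the 84 for dexamethasone in LNCaPabl-Enza (3.0% of all genes). In LNCaPabl-Abi it was 11.9% (7.09% of all genes). For the difference between the responses it was 4.76% (3.2% of all genes). The median of the 84 was -0.096 between the dexamethasone-treated lines, against -0.0084 over all genes.

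Among the IGFBP proteases, ADAM12, a metalloprotease that cleaves IGFBP3 and IGFBP5, was the clearest. It had 4.82, 4.38 and 4.30 in Enza_Dex against 6.22, 6.17 and 6.25 in Abi_Dex, a difference of -1.71 ± 0.19 (SE, adjusted p = 0.000120). It was also called with DMSO, at -1.45 ± 0.21 (adjusted p = 0.00224), but Enza_Ctrl replicate 2 had 6.47 where the other Enza_Ctrl arrays had 4.48 and 4.14. ADAM12 was therefore lower in LNCaPabl-Enza on every array but that one. Its values of 4.14 to 4.82 on the other Enza arrays lay close to their background medians of 3.96 to 3.97. The size of these differences thus rests partly on values near background. Both called differences are from the fit without Enza_Ctrl replicate 2. With 12 arrays ADAM12 was not called, at -1.71 ± 0.48 (adjusted p = 0.374) with dexamethasone and -0.74 ± 0.48 (adjusted p = 0.437) with DMSO.

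The signalling genes were likewise called only without Enza_Ctrl replicate 2, and their values come from that fit. GRB14, an adaptor that inhibits the insulin receptor, had 6.82, 6.55 and 7.68 in Enza_Dex against 9.34, 9.12 and 8.38 in Abi_Dex, a difference of -1.93 ± 0.39 (adjusted p = 0.0137). Its replicate 3 arrays lay nearest to the other line, as those of IGFBP3 did. GAB1, a docking protein that brings PI3K to receptors, was lower by -0.83 ± 0.18 (adjusted p = 0.0254) with dexamethasone and by -1.06 ± 0.20 (adjusted p = 0.0170) with DMSO. PIK3R1, the p85-alpha regulatory subunit of PI3K, was lower with dexamethasone, with 11.48, 11.10 and 12.69 in Enza_Dex against 13.41, 13.24 and 13.56 in Abi_Dex, a difference of -1.65 ± 0.39 (adjusted p = 0.0376). CDKN1B, the cell cycle inhibitor p27 and a FOXO target, was the gene called higher, at 0.74 ± 0.18 (adjusted p = 0.0420). With 12 arrays and dexamethasone the adjusted p was 0.181 for GRB14, 0.575 for GAB1, 1.00 for PIK3R1 (SE 1.05) and 0.442 for CDKN1B, and for GAB1 with DMSO the difference was -1.33 ± 0.26 (adjusted p = 0.0823).

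In the 4 lists with no called gene in either fit, the smallest p with 12 arrays belonged to SORL1, CCN3, IGF2 and IGF2BP3. In the fit without Enza_Ctrl replicate 2, IGFALS, the acid-labile subunit, had a smaller p than IGF2 had with 12 arrays, with a difference of 0.60 ± 0.24 between the DMSO-treated lines (adjusted p = 0.352), and was chosen for mention after its value was seen. SORL1, a sorting receptor, was at -1.50 ± 0.50 (SE, adjusted p = 0.387) between the DMSO-treated lines with 12 arrays and at -0.73 ± 0.19 (adjusted p = 0.102) without Enza_Ctrl replicate 2. IGF2, the ligand cleared by IGF2R, was at -0.84 ± 0.49 for dexamethasone in LNCaPabl-Enza and at -0.11 ± 0.23 without that array. CCN3, a matricellular protein, was at -1.32 ± 0.48 and at -0.72 ± 0.31 in the same comparison. IGF2BP3, an RNA-binding protein, was at 1.21 ± 0.73 and at 0.064 ± 0.26. IGF2 and CCN3 lay near background in that line. In Enza_Dex, IGF2 had 3.59, 3.48 and 4.12 and CCN3 had 3.45, 2.76 and 3.53. The background medians of those arrays were 3.96, 3.96 and 3.97, so both differences rest partly on values at background.

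**Figure D3:**
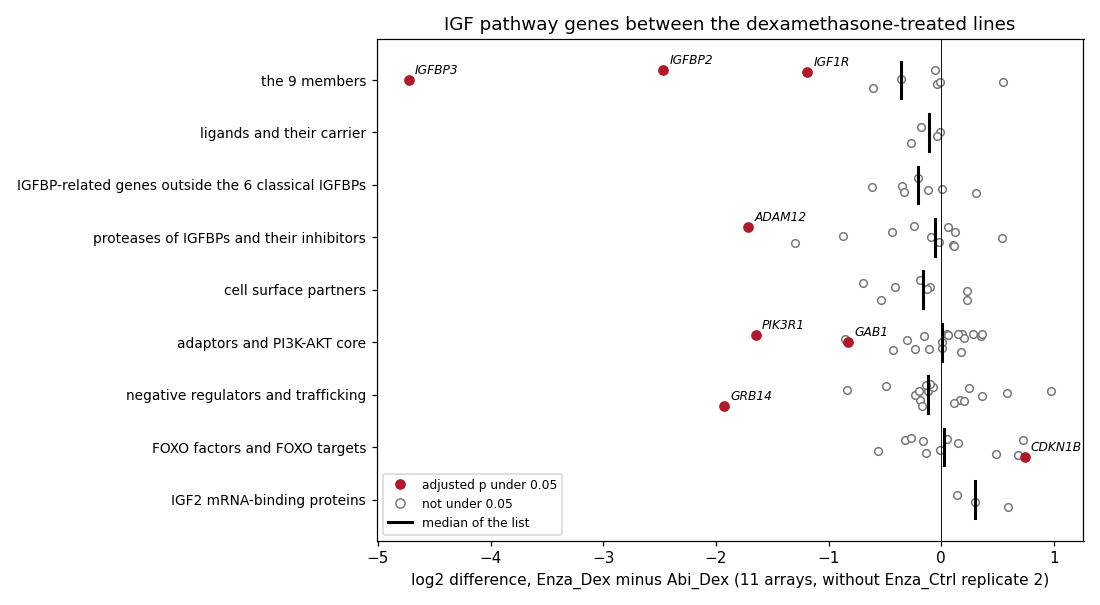
Log2 differences, Enza_Dex minus Abi_Dex (x axis), of the 9 genes and of the 84 measured genes of 8 pathway lists (y axis), from the fit without Enza_Ctrl replicate 2. Points are genes, filled where the adjusted p is under 0.05, and black bars are medians. In the lists, ADAM12, GRB14, GAB1 and PIK3R1 lie below 0 and CDKN1B above it among the filled points.

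Genes whose pattern was most like that of a family member were listed for the 4 genes whose group means spanned more than 1 on the log2 scale, by Pearson r over the 11 arrays without Enza_Ctrl replicate 2. For IGFBP3 these were KCNQ5 (r = 0.987), CACNA2D3 (r = 0.983) and GRB14 (r = 0.981). For IGFBP2 they were CHN1 (r = 0.979), ANTXR1 (r = 0.978) and ARID5B (r = 0.974). IGF1R was most like MYBPC1 (r = 0.933), S100A3 (r = 0.932) and ERN1 (r = 0.925), and IGFBP5 like MTERF4 (r = 0.939), FER1L6 (r = 0.911) and SERPINA11 (r = 0.903). SERPINA11 had 2.75 to 3.47, below the background median on each of these arrays, and IGFBP5 was at background on several Enza arrays. Their likeness thus rests partly on values at background. MYBPC1 lay below the background median on Abi_Ctrl replicates 2 and 3, Enza_Ctrl replicates 1 and 3 and Enza_Dex replicates 1 and 2. S100A3 had 3.93 to 4.63 on the 11 arrays, close to background. The likeness of IGF1R to MYBPC1 and S100A3 therefore also rests partly on values at or near background. The arrays fall into 2 lines and 2 treatments, so a high r shows a shared pattern over 4 groups and is given as a description.

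KCNQ5, a potassium channel subunit, had 10.42, 9.52 and 10.70 in Enza_Dex, 9.86 and 10.97 in Enza_Ctrl without replicate 2, 12.38, 12.06 and 11.24 in Abi_Dex and 12.57, 12.28 and 11.81 in Abi_Ctrl, so that replicate 3 again lay nearest to the other line in every group. CHN1, a Rac GTPase-activating protein, had 7.48, 7.13 and 9.30 in Enza_Dex and 12.64, 12.92 and 13.46 in Abi_Dex, with replicate 3 highest in both lines, as for IGFBP2. MYBPC1, a myosin-binding protein, had 6.74, 5.55 and 7.06 in Abi_Dex and 4.13, 3.62 and 3.51 in Abi_Ctrl, where replicates 2 and 3 lay below background. In Enza_Dex its replicate 3 was highest at 5.37, as for IGF1R.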

How the data were processed

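Total RNA was labelled with biotin using the WT PLUS kit and measured on 12 single-colour Affymetrix arrays, per the labels' protocols. What the authors deposited is 1 log2 value per transcript cluster and array. Affymetrix Expression Console, RMA and limma appear without versions in the submitters' processing notes. Values spanned 1.66 to 18.6, wider than RMA usually gives, and whether a further step was applied is not given in the sources used here. Fold values therefore apply to that scale. Of 24351 rows, 17709 had 1 symbol in the platform annotation, 6642 had none here and 0 had several. The brightest row was kept for 20 symbols with several rows, which left 17687 genes.

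Groups and replicate numbers came from sample titles. The labels say triplicates without naming separate cultures, so the p-values here cover only array-to-array spread and part of it may be technical. No 2 arrays were identical (highest Pearson r 0.996), and their number limits the precision. Differences were tested with limma 3.58.1 in R 4.3.3 (statmod 1.5.0; lmFit and eBayes, 4 group means, no filter, no block), with Benjamini-Hochberg adjustment over all genes, at 0.05. The script was tested on simulated data. Genes named were the 9 family members, called pathway genes (up to 6 a comparison), the smallest p of each list with no call, SGK1 and TSC22D3 as treatment checks, and the 3 most alike genes of each variable member. TSC22D3 differed by 1.50 ± 0.53 (SE) in LNCaPabl-Abi and by 0.55 ± 0.53 in LNCaPabl-Enza after dexamethasone, neither called with or without Enza_Ctrl replicate 2. NR3C1 was added after its values were seen. The members, lists and rule were chosen with earlier results of these data known. Alternatives were each array left out, quantile normalization anew, a filter on dim genes, a replicate block, array weights, fits of only the groups compared, eBayes with trend and robust, and all rows of a symbol. Alternatives without the replicate 3 arrays were added after the data were seen.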

Additional observations from a re-analysis of the deposited data

How the results depend on the processing

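Over 45 differences (9 genes in 5 comparisons) and up to 23 alternatives each, 979 values were computed, of which 57 had the opposite sign and 0 of those were called. In 7 of the 45 differences at least 1 alternative was called: IGFBP3 and IGFBP2 between the lines under both treatments, IGFBP5 between the DMSO-treated lines, and IGF1R for dexamethasone in LNCaPabl-Abi and between the dexamethasone-treated lines. None of these 7 turned sign.

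Leaving out each array in turn gave 0 to 3 of the 9 genes called between the dexamethasone-treated lines (12 to 403 of all genes), 0 to 2 between the DMSO-treated lines (11 to 228 of all genes), 0 to 1 for dexamethasone in LNCaPabl-Abi (0 to 25 of all genes) and, in LNCaPabl-Enza, 0 to 1 of all genes. Enza_Ctrl replicate 2 gave the highest counts of all genes in the first 3. Leaving out Enza_Ctrl replicate 3 gave 1 of the 9 (58 of all genes) and 2 of the 9 (99) between the lines with dexamethasone and DMSO, and no other single array gave a call among the 9. Quantile normalization anew and the filter on dim genes, which kept 5 of the 9, each gave 1 of the 9 between the dexamethasone-treated lines, namely IGFBP2, with 45 and 64 of all genes called. Array weights, which gave Enza_Ctrl replicate 2 a weight of 0.032, called 3 of the 9 (767 of all genes) and 3 of the 9 (252) between the lines with dexamethasone and DMSO, and 1 of the 9 (37) for dexamethasone in LNCaPabl-Abi. Fitting only the groups compared gave 3 of the 9 (502) between the dexamethasone-treated lines, 0 of all genes between the DMSO-treated lines and 1 of the 9 (22) in LNCaPabl-Abi. Without Enza_Ctrl replicate 2 as well, it gave 1 of the 9 (117) between the DMSO-treated lines. Without all replicate 3 arrays the counts were 15 of all genes, 1 of the 9 (18) and 3 of all genes in these 3 comparisons. Also without Enza_Ctrl replicate 2 they were 3 of the 9 (380), 3 of the 9 (251) and 1 of the 9 (23), with 1 gene called in LNCaPabl-Enza and 7 for the difference between the responses. The trend and robust setting and all rows of a symbol changed no call among the 9.

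The check made did not settle whether the replicate numbers pair the arrays. Same-numbered deviations from group means correlated at 0.0031 to 0.301, all of them positive, and not every pair was over 0.1. The lowest value came from a pair with Enza_Ctrl replicate 2. With 12 arrays, a block lowered the SE between the dexamethasone-treated lines from 0.44 to 0.29 for IGFBP2. It went from 0.44 to 0.34 for IGFBP5 and from 0.51 to 0.40 for IGF1R, but rose from 1.12 to 1.19 for IGFBP3. A replicate block gave 1 of the 9, IGFBP2, between the lines with dexamethasone (56 of all genes) and with DMSO (64). Without Enza_Ctrl replicate 2 and with replicate block it gave 3 of the 9 (540 of all genes) and 3 of the 9 (303) between the lines with dexamethasone and DMSO, 1 of the 9 (39) in LNCaPabl-Abi and 1 of all genes for the difference between the responses. Signal over background limits IGFBP1, IGFBP4, IGFBP5 and IGFBP6, which the filter on dim genes left out.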

Other observations

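On Enza_Ctrl replicate 2 several genes of the pathway lay outside the range of the other 11 arrays. IGF1, the growth factor itself, was at 9.40 there and at 5.53 to 6.69 elsewhere, and IGF2 was at 6.02. PIK3R1 was at 7.10, against 11.14 and 12.59 on the other Enza_Ctrl arrays, and IGF2BP3 at 5.32, against 8.79 and 8.73. IGF1R, at 7.56, was lower than on any other array. These genes were picked for their values on that array.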
